A study of Mus musculus with 7 samples.

Results

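The genes Msln, Upk3b, Upk1b, Lrrn4 and Wt1, which mark the mesothelium, are described here across all the mouse tissues of the series. They were chosen by name as mesothelial genes, each had 1 probe with a named gene, and they are 5 of the 17047 named genes on the array. The series holds 7 samples with 1 one-colour array each: stomach-like tissue grown from mouse embryonic stem (ES) cells at day 46 and at day 42, stomach primordium at embryonic day 9.5 (E9.5), and adult lung, intestine, esophagus and stomach.

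The day 42 tissue was grown in DMEM/F12 with N2/B27 and EGF (50 ng/mL), together with R-spondin1 (250 ng/mL), Noggin, Wnt3a and FGF10 (100 ng/mL). The day 46 tissue had the same history and then 4 days with Shh (100 ng/mL) and Bmp4 (10 ng/mL), so its medium and its age changed together and cannot be told apart. The adult organs were taken fresh from ICR mice, for which no age is given in the sources used here. The ES-cell line, the number of animals or cultures behind each sample, and whether any were pooled are likewise not given in the sources used here. The RNA came from mixed tissue, in which the number of mesothelial cells, the RNA per mesothelial cell and expression by other cells cannot be told apart.

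The mesothelium is the flat epithelium of mesodermal origin that lines the pleural, pericardial and peritoneal cavities and covers the organs inside them. On the stomach and intestine it forms the outer layer of the serosa, on the lung it is the visceral pleura, and on the heart its counterpart is the epicardium. Fetal mesothelial cells can leave the sheet and give rise to fibroblasts and smooth muscle of the underlying organ. Mesothelin (Msln) is a membrane-anchored glycoprotein of the mesothelial surface that binds the mucin Muc16. Upk3b and Upk1b are uroplakins, membrane proteins best known from the plaques of the bladder lining; Upk1b is a tetraspanin that pairs with the single-pass Upk3 proteins. Lrrn4 is a single-pass membrane protein with leucine-rich repeats. Wt1 is a zinc-finger transcription factor needed for the formation of several mesothelium-derived tissues, and it is also made by kidney podocytes and gonadal support cells.

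The set of upstream stretches used here (RefSeq, GRCm38.p6) held 2 of the 5 genes, Upk3b and Lrrn4. The 250 bases before their starts are shown for that reason. The Upk3b stretch is chr5:136038246-136038495 on the + strand and the Lrrn4 stretch is chr2:132880863-132881112 on the - strand, each written 5′ to 3′ along the gene, with the match to the TEAD-factor motif GGAATG, on either strand, in capitals.
Upk3b: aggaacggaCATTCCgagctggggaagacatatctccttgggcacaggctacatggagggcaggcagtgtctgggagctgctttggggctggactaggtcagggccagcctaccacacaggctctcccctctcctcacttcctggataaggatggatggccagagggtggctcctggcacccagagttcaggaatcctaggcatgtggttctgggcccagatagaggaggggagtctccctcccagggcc
Lrrn4: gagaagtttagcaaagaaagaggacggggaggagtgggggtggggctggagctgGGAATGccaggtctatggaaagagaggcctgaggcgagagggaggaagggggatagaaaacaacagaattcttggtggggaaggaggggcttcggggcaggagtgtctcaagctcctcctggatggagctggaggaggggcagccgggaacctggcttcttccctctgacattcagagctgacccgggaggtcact
The motif lies 241 bases before the Upk3b start, on the opposite strand, and 196 bases before the Lrrn4 start, on the same strand. It was present in 12.64% of the 32851 upstream stretches of this length. On neither strand of these 2 stretches was there a match to the GC box GGGCGG, present in 32.74% of all stretches, or to the GATA site AGATAA, present in 9.99%. Nor was there one to the TATA box TATAAA (12.37% of all stretches) or to the Wt1/Egr1 site GCGGGGGCG (2.57%). The G and C content was 60.8% for Upk3b and 59.2% for Lrrn4, against a median of 52.4% over all stretches. A letter match is a description and not a binding site.

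All levels below are log2 of the probe's signal minus the 75th percentile of the same array. Levels of different probes cannot be set against each other, and each gene is compared only with itself across arrays. With 1 array per group no statistical test was possible. Differences are therefore set against a technical spread, the standard deviation (SD) between probes of the same gene of the log2 difference between the same pair of arrays, which ranged from 0.48 to 0.93. The scanner software's own error for a spot was 10.0% to 20.6% of the signal for the 33 of 35 member values that were well above background. Between 77.8% (adult lung) and 90.5% (day 46) of named genes were above background. The 4 adult organs shared 1 slide and the other 3 samples each had a slide of their own, so outside the adult organs slide and sample cannot be told apart. The tissue labels were checked against marker genes by the median level of each list. The 10 lung epithelium markers had a median level of 5.22 in adult lung, against -2.88 in adult stomach, and the 10 squamous markers 5.67 in adult esophagus, against 4.53 in adult stomach. The 10 gastric and intestinal markers had medians of -0.60 at day 46, -1.24 at day 42, -4.33 in the E9.5 primordium and -2.94 in adult intestine, against 7.61 in adult stomach. This list mixes gastric with intestinal genes, so its median does not check the intestine label. In adult intestine 4 of these 10 were at least 2-fold higher than in adult stomach and 6 lower. Against adult stomach, 8 of these 10 were at least 2-fold lower and 2, the intestinal genes Cdx2 and Vil1, higher in both cultures. The gastric genes Gkn1, Gkn2 and Pgc were not above background at E9.5, nor Gkn1 at day 42.

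Msln had a level of 6.51 at day 46, 6.77 at day 42, -5.67 in the E9.5 primordium, 4.11 in adult lung, 3.49 in adult intestine, 2.24 in adult esophagus and 1.97 in adult stomach. Both ES-derived tissues were above every organ, and the gap between day 46 and the next sample, adult lung, was 2.39, more than 2 SD between probes (SD 0.89). The E9.5 value was far below the others, and it was 0.77 above the weakest signal that counted as above background on that array (-6.43). Among the adult organs, intestine and esophagus were separated by 1.26 (SD 0.58), while the steps from lung to intestine (0.62, SD 0.60) and from esophagus to stomach (0.27, SD 0.48) were within 2 SD.

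Upk3b had a level of -4.60 at day 46, -2.10 at day 42, -2.37 in the E9.5 primordium, 0.53 in adult lung, 1.04 in adult intestine, -0.25 in adult esophagus and -1.79 in adult stomach. The 3 adult organs other than stomach were highest and the day 46 tissue lowest, and adult stomach, day 42 and E9.5 lay within 0.58 of each other. Only 2 steps in the order were larger than 2 SD: esophagus over stomach (1.54) and E9.5 over day 46 (2.23).

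Upk1b had a level of -1.42 at day 46, -0.45 at day 42, -1.02 in adult lung, -0.34 in adult intestine, -2.22 in adult esophagus and -3.07 in adult stomach, and it was not well above background in the E9.5 primordium. No step among the 6 samples with signal was larger than 2 SD, so neighbours in their order cannot be separated. Samples further apart can differ by more. Intestine (2.73), lung (2.04) and day 42 (2.62) were above adult stomach by more than 2 SD. Day 46 (1.65) and esophagus (0.85) were not. The E9.5 primordium lay apart, below adult stomach, the lowest of the 6.

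Lrrn4 had a level of -5.42 at day 42, -3.84 in the E9.5 primordium, -1.29 in adult lung, -0.50 in adult intestine, -1.51 in adult esophagus and -3.30 in adult stomach, and it was not well above background at day 46. The day 42 value was only 0.15 above that array's weakest signal above background and carried a spot error of 20.6%, the largest among the members' values above background. The adult organs other than stomach were again highest, with a step of 1.79 from esophagus to stomach (SD 0.48). The 2 ES-derived tissues were lowest.

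Wt1 had a level of 1.30 at day 46, 1.61 at day 42, -0.29 in the E9.5 primordium, -2.41 in adult lung, 0.30 in adult intestine, -1.72 in adult esophagus and -3.21 in adult stomach. Its probe was printed on 10 spots per array, and the SD between spots was 0.04 to 0.16 within an array. The ES-derived tissues, intestine and the primordium formed the upper end of the order, and the step from the primordium to esophagus (1.43, SD 0.65) was the only one larger than 2 SD.

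**Figure D1:**
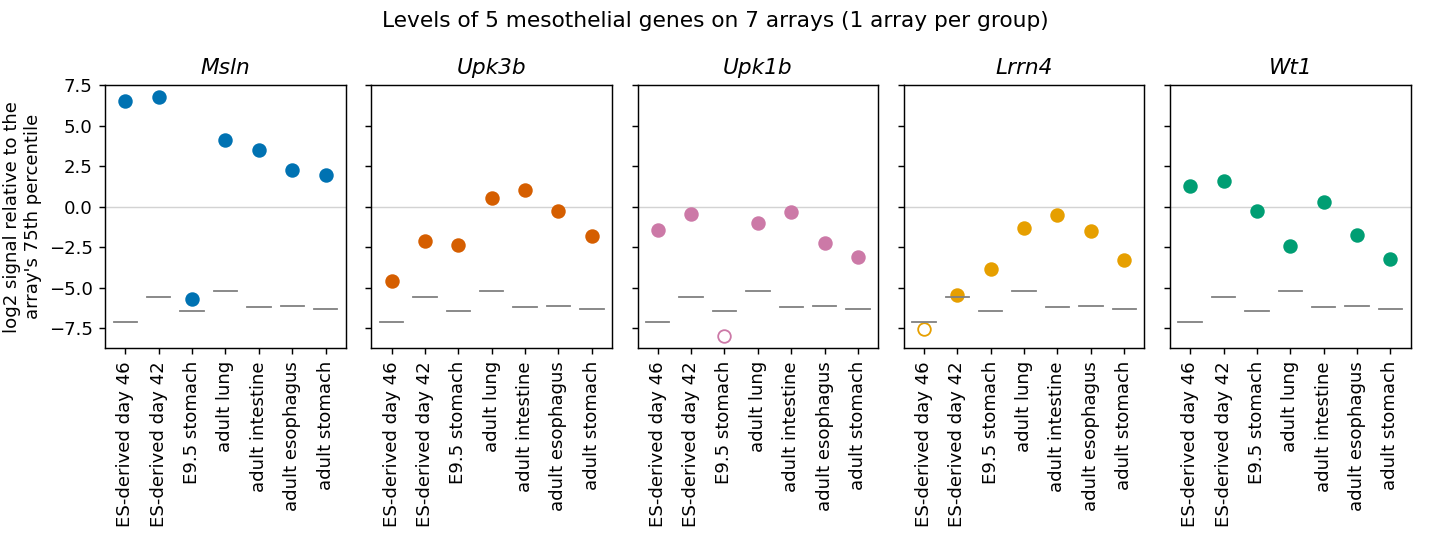
Levels of the 5 genes (panels) on each of the 7 arrays (x axis), as log2 signal relative to the array's 75th percentile (y axis). Filled points were well above background, open points were not, and the grey bars mark each array's weakest signal above background; Msln is highest in the ES-derived tissues and near that bar at E9.5, while Upk3b and Lrrn4 are highest in adult lung, intestine and esophagus.

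In the adult organs all 5 genes were lowest in the stomach. The step to the next organ was within 2 SD for Msln (0.27, SD 0.48), Upk1b (0.85, SD 0.48) and Wt1 (0.80, SD 0.56). The stomach was the lowest of the 4 organs for 16.0% of the 14404 named genes compared, against 5 of 5 here. Since these 4 organs shared a slide, no slide difference enters these values. Upk3b and Lrrn4 were at least 2-fold lower in stomach than in each of the other 3 organs, a pattern found for 2.33% of genes.

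Adult intestine exceeded adult stomach by at least 2-fold for 5 of 5 genes, against 17.9% of the 14997 genes compared, and was at least 2-fold lower for 0 of 5 (19.2%). Wt1 differed most, with a level of 0.30 in intestine and -3.21 in stomach, an 11.4-fold difference (3.51, SD between probes 0.53). The surface proteins were also higher in intestine: Upk3b by 7.15-fold (2.84), Lrrn4 by 6.98-fold (2.80), Upk1b by 6.64-fold (2.73) and Msln by 2.87-fold (1.52). All these sizes were more than 2 SD, and the median difference was 2.80, against -0.08 over all genes. With another background correction (normexp) the median was 1.98 and the Wt1 difference 2.54. Of 8 smooth muscle markers, a main cell type of both walls, 0 were higher and 0 lower by 2-fold (median 0.17), while endothelial markers were at least 2-fold lower in intestine for 8 of 8 (3 of 8 with the normexp correction). Squamous markers, which in the mouse include those of the forestomach lining, were lower in intestine for 10 of 10. The part of these other cells in the result was not tested.

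Adult lung exceeded adult stomach by at least 2-fold for 4 of 5 genes, against 18.0% of 14704 genes, and was at least 2-fold lower for 0 of 5 (21.8%). Upk3b was 5.01-fold higher in lung (2.33), Msln 4.41-fold (2.14), Upk1b 4.12-fold (2.04) and Lrrn4 4.03-fold (2.01), with an SD between probes of 0.56. Wt1 was the exception, at -2.41 in lung and -3.21 in stomach, a difference of 0.80 that is within 2 SD. The median difference was 2.04, against -0.14 over all genes, and 1.32 with the normexp correction. Endothelial markers were at least 2-fold higher in lung for 8 of 8 and cardiomyocyte markers for 6 of 9; the level of the cardiac myosin gene Myh6 was 3.17 in lung and -4.24 in stomach. Whether these other cells carry any of the signal was not tested.

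Adult esophagus exceeded adult stomach by at least 2-fold for 3 of 5 genes, against 14.0% of 14858 genes, and was at least 2-fold lower for 0 of 5 (15.6%). Lrrn4 was 3.46-fold higher in esophagus (1.79), Upk3b 2.91-fold (1.54) and Wt1 2.81-fold (1.49), with an SD between probes of 0.48. Upk1b (0.85) and Msln (0.27) differed by less than 2 SD. The median difference was 1.49, against -0.07 over all genes; with the normexp correction it was 0.80, and Wt1, at 0.80, was then under 2-fold. In the esophagus sample 9 of 10 lung epithelium markers were above background, all but Foxj1, against 8 of 10 in adult stomach. Of all named genes 83.6% were above background in esophagus. Of the 9 markers compared, 5 were at least 2-fold higher in esophagus than in stomach and 1 lower. The surfactant gene Sftpc had a level of 5.12 in esophagus, 9.71 in lung and -0.74 in stomach, and the club-cell gene Scgb1a1 had 5.44 in esophagus, 9.57 in lung and 2.91 in stomach. In a comparison added after these values were seen, the 10 lung markers lay below lung in the esophagus sample by between 1.98 (Hopx) and at least 6.85 (Foxj1, not above background in esophagus), with a median of -6.41. The members' differences to lung were -0.22 for Lrrn4, -0.78 for Upk3b, -1.19 for Upk1b, -1.87 for Msln and 0.69 for Wt1. Of 20 fibroblast and mesothelial-to-mesenchymal transition genes, 13 were at least 2-fold higher in esophagus than in stomach and 0 lower (median 1.57). Endothelial markers were higher for 6 of 8 and lower for 0, and smooth muscle markers higher for 3 of 8 and lower for 3. The part of lung tissue or of these other cells in the members' esophagus levels was not tested.

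**Figure D2:**
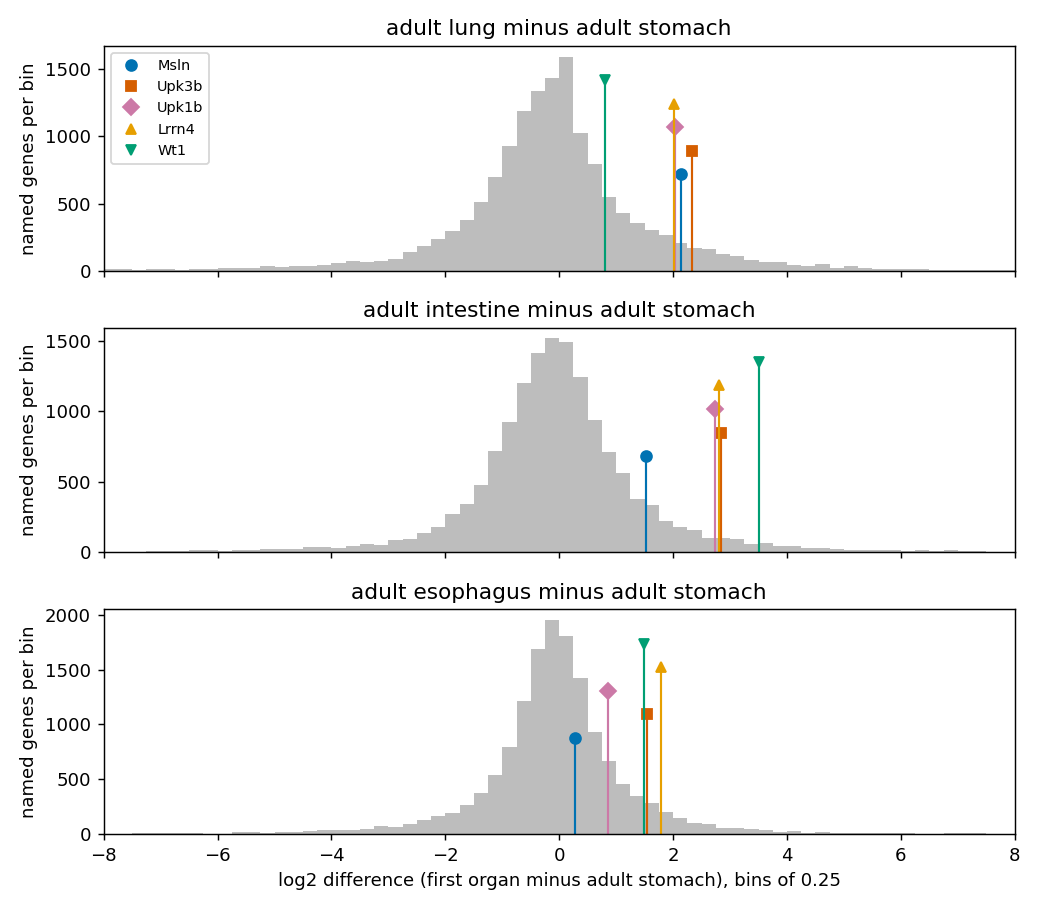
Distribution of the log2 differences of all named genes (grey bars, bins of 0.25 on the x axis, number of genes on the y axis) between each adult organ and adult stomach, with the 5 genes as coloured stems whose heights carry no meaning. All 5 stems lie right of 0 in each panel, from 1.52 to 3.51 in intestine, 0.80 to 2.33 in lung and 0.27 to 1.79 in esophagus.

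The comparison of ES-derived with adult stomach asks how the cultured tissue differs from the organ it is named for. At day 46, 3 of 5 genes were at least 2-fold higher than in adult stomach (19.4% of 15727 genes) and 2 of 5 at least 2-fold lower (22.1%). Msln was 23.1-fold higher (4.53) and Wt1 22.7-fold higher (4.51), both more than 2 SD (SD 0.85), and Upk1b was 3.14-fold higher (1.65), which is within 2 SD and was 0.96 with the normexp correction. Upk3b was 7.01-fold lower at day 46 than in adult stomach (-2.81), and Lrrn4, below background at day 46, was at least 14.2-fold lower. With the normexp correction Wt1 was higher by 3.56, and the Lrrn4 bound was -2.40 in place of -3.83.

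At day 42 the split was similar, with 3 of 5 genes at least 2-fold higher than in adult stomach (20.2% of 14819 genes) and 1 at least 2-fold lower (22.6%). Wt1 was 28.3-fold higher (4.82), Msln 27.9-fold (4.80) and Upk1b 6.15-fold (2.62), all more than 2 SD (SD 0.87), and Wt1 was higher by 3.83 with the normexp correction. Lrrn4, near background at day 42, was 4.34-fold lower (-2.12), also more than 2 SD (1.74). Its difference was within that limit under median centring (-1.65), quantile normalization (-1.41) and the normexp correction (-1.38). Upk3b had a level of -2.10 at day 42 and -1.79 in adult stomach, a difference within 2 SD whose sign turned under median centring (0.16 in place of -0.31). The day 46 and day 42 comparisons share the adult stomach array. Msln, Wt1 and Upk1b were at least 2-fold higher in both cultures, as were 14.4% of 14803 genes, and Lrrn4 was at least 2-fold lower in both, as were 17.0%.

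The wider mesothelial lists had more genes lower than higher at day 46 relative to adult stomach. Of 17 surface, matrix and secreted genes, 4 were at least 2-fold higher and 8 lower at day 46 (median -0.91), and 5 were higher and 4 lower at day 42 (-0.21). Of the regulators and retinoic acid genes, 6 of 23 were higher and 9 lower at day 46 (-0.62), and 5 of 22 were higher and 8 lower at day 42 (-0.27).

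The same comparison is given for lists of other cells. Of 10 cardiomyocyte markers, 8 were at least 2-fold higher than in adult stomach and 2, Tnni3 and Actc1, lower in each culture, with medians of 4.46 at day 46 and 5.56 at day 42, against 0.00 over all genes. Of 9 hepatocyte markers, 6 were higher and 3, Ttr, Apoa1 and Hnf4a, lower in each culture, and the albumin gene Alb had levels of 6.08 and 5.67, against -2.37 in adult stomach. Smooth muscle markers were at least 2-fold lower for 7 of 8 at day 46 (median -3.20) and 7 of 8 at day 42 (-3.67), and endothelial markers for 7 of 8 at day 46 (-4.03) and 7 of 8 at day 42 (-3.35). Squamous markers were lower for 7 of 9 at day 46 (-4.92) and 9 of 10 at day 42 (-5.31), and gastric and intestinal markers had medians of -3.76 at day 46 and -7.04 at day 42. The part of these cells in the members' levels was not tested. Of 20 fibroblast and mesothelial-to-mesenchymal transition genes, 15 were at least 2-fold higher at day 46 and 16 at day 42, with none lower; the matrix gene Fn1 led the list at 5.61 and 4.45, against 0.34 in adult stomach. Wt1 is also made by other cells: of 10 podocyte and gonadal support genes 8 were above background at day 46 and 5 at day 42, against 8 in adult stomach, and the testis gene Dmrt1 was above background on no array. Of all named genes 90.5% were above background at day 46 and 78.4% at day 42. Of the 3 other uroplakins with a named probe, 0 were at least 2-fold higher than adult stomach in either culture. Upk1a, the tetraspanin closest in kind to Upk1b, had levels of -3.09 at day 46, -4.56 at day 42 and -3.22 in adult stomach, and Upk3a had -6.26 at day 46 and -1.93 in adult stomach and was not above background at day 42.

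After the 4 days with Shh and Bmp4, the day 46 tissue was at least 2-fold lower than the day 42 tissue for 2 of 5 genes (6.47% of 15453 genes) and at least 2-fold higher for 0 of 5 (9.00%). Over all genes 1390 were higher and 1000 lower, but 596 and 2785 under median centring and 482 and 811 with the normexp correction. Upk3b had a level of -4.60 at day 46 and -2.10 at day 42, a 5.67-fold decrease (-2.50, SD between probes 0.51), and 0.83% of all genes differed by more in either direction. With the normexp correction this difference was -1.84. Lrrn4 was at least 3.27-fold lower, since it was not above background at day 46; its bound of -1.71 became -1.02 with the normexp correction and -2.68 under quantile normalization. Upk1b was 1.96-fold lower (-0.97), within 2 SD, and passed 2-fold under median centring (-1.37) and quantile normalization (-1.02). Msln (-0.27) and Wt1 (-0.32) differed by less than 1 SD, and the sign for Msln turned under quantile normalization (0.23). The median difference of the 5 genes was -0.97, against 0.00 over all genes. Between these arrays the share of genes above background also differed (90.5% at day 46 and 78.4% at day 42), and the median of 10 spike-in control probes was 2.87 below the other arrays at day 46 and 1.12 above them at day 42 on the log2 scale. The part of these array differences in the result was not tested.

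The other mesothelial genes, listed with earlier results known, are given for the same step. Of the 16 compared surface, matrix and secreted genes, 5 were at least 2-fold lower at day 46 than at day 42 and 0 higher (median -0.14, against 0.00 over all genes). The 5 were Gpm6a, a neuronal-type membrane glycoprotein (-2.09), Rspo1, a Wnt-pathway agonist (-1.80), Nkain4, a protein that binds a sodium pump subunit (-1.74), the protease inhibitor Slpi (-1.49) and the tight-junction protein Cldn15 (-1.32). Under quantile normalization 2 of the 16 genes were at least 2-fold higher. Of 23 regulators and retinoic acid genes, 5 were at least 2-fold higher (2 under median centring or quantile normalization, 1 with normexp) and 3 lower at day 46 (5 under median centring). The lower ones were the transcription factors Bnc1 (-2.13), Osr1 (-1.63) and Gata5 (-1.25). Bnc1, known from mesothelium and stratified epithelia, had a level of -4.42 at day 46, -2.30 at day 42 and -2.95 in adult stomach. The largest differences among the higher ones were those of the homeobox gene Meox1, a bound of 2.36, and the retinaldehyde dehydrogenase gene Aldh1a3 (1.55). Cardiomyocyte markers were at least 2-fold lower at day 46 for 4 of 10, and squamous markers at least 2-fold higher for 6 of 9.

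**Figure D3:**
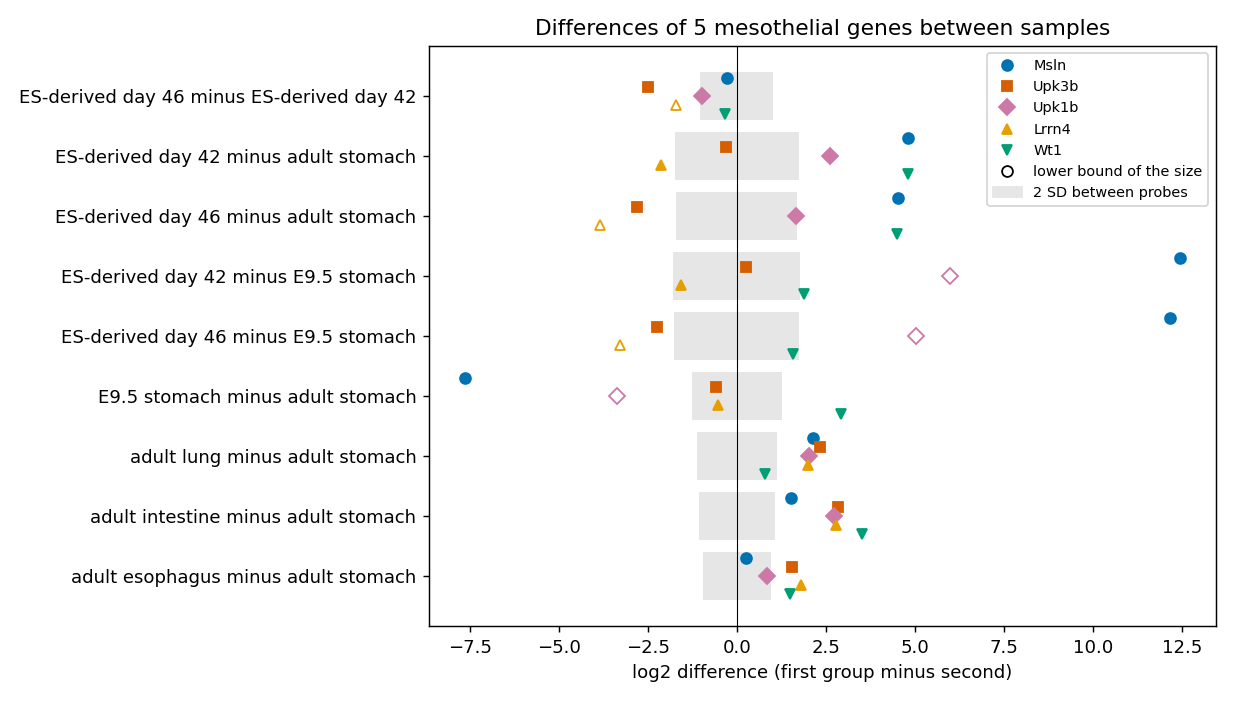
Log2 differences (x axis) of the 5 genes in the 9 comparisons (rows), first group minus second. Grey bars span 2 SD between probes on each side of 0 and open symbols are bounds; Msln and Wt1 lie right of the bar and Lrrn4 left of it in both comparisons of ES-derived tissue with adult stomach, while all symbols lie right of 0 in the 3 comparisons among adult organs.

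The E9.5 primordium, in which the stomach is still a simple tube of endoderm and mesoderm, was set against adult stomach. Wt1 was 7.59-fold higher in the primordium (2.92, SD between probes 0.63), the 1 of 5 genes at least 2-fold higher (27.3% of 15090 genes). At least 2-fold lower were 2 of 5 (29.8%): Msln, by 200-fold (-7.64), and Upk1b, by at least 10.3-fold. Upk3b (-0.58) and Lrrn4 (-0.54) differed by less than 1 SD, and the sign for Lrrn4 turned under median centring (0.03) and quantile normalization (0.10). With the normexp correction the differences were 1.97 for Wt1, -5.31 for Msln and -1.70 for the Upk1b bound. Of 24 regulators of the mesothelial and epicardial lineage and retinoic acid genes, 12 were at least 2-fold higher and 6 lower in the primordium (median 1.02, against -0.03 over all genes). Aldh1a2, the retinoic acid synthesis enzyme typical of embryonic mesothelium, had a level of 4.44 in the primordium and 0.85 in adult stomach, and the epicardial factor Tbx18 had -0.61 in the primordium and was not above background in adult stomach. Of the 17 other surface, matrix and secreted genes, 10 were lower and 3 higher (median -2.19), with Slpi at -3.35 in the primordium and 5.97 in adult stomach. Lhx9, a regulator of gonad development in the list of other Wt1-expressing cells, had a level of 0.69 in the primordium and -5.72 in adult stomach, and its part in the Wt1 level was not tested.

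Against the E9.5 primordium, the ES-derived tissues had more Msln and Upk1b. At day 46, 3 of 5 genes were at least 2-fold higher (28.7% of 15701 genes) and 2 lower (26.4%). Msln was higher by 12.18 on the log2 scale, Upk1b at least 32.4-fold and Wt1 was higher by 1.58 (1.08 under median centring), within 2 SD, while Upk3b was 4.69-fold lower (-2.23) and Lrrn4 at least 9.77-fold lower. At day 42, 3 of 5 were at least 2-fold higher (28.1% of 14695 genes) and 1 lower (25.9%). Msln was higher by 12.44, Upk1b at least 63.4-fold and Wt1 3.73-fold (1.90, SD 0.89). Upk3b differed by 0.27 and Lrrn4 was 2.99-fold lower at day 42 (-1.58), both within 2 SD, and Lrrn4 was at -0.65 with the normexp correction. The size for Msln rests on a primordium signal near background and was 9.93 at day 46 and 10.03 at day 42 with the normexp correction, when the Upk1b bounds were 2.66 and 3.53. The Lrrn4 bound at day 46, -3.29, became -1.68 with the normexp correction and -4.18 under quantile normalization.

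**Figure D4:**
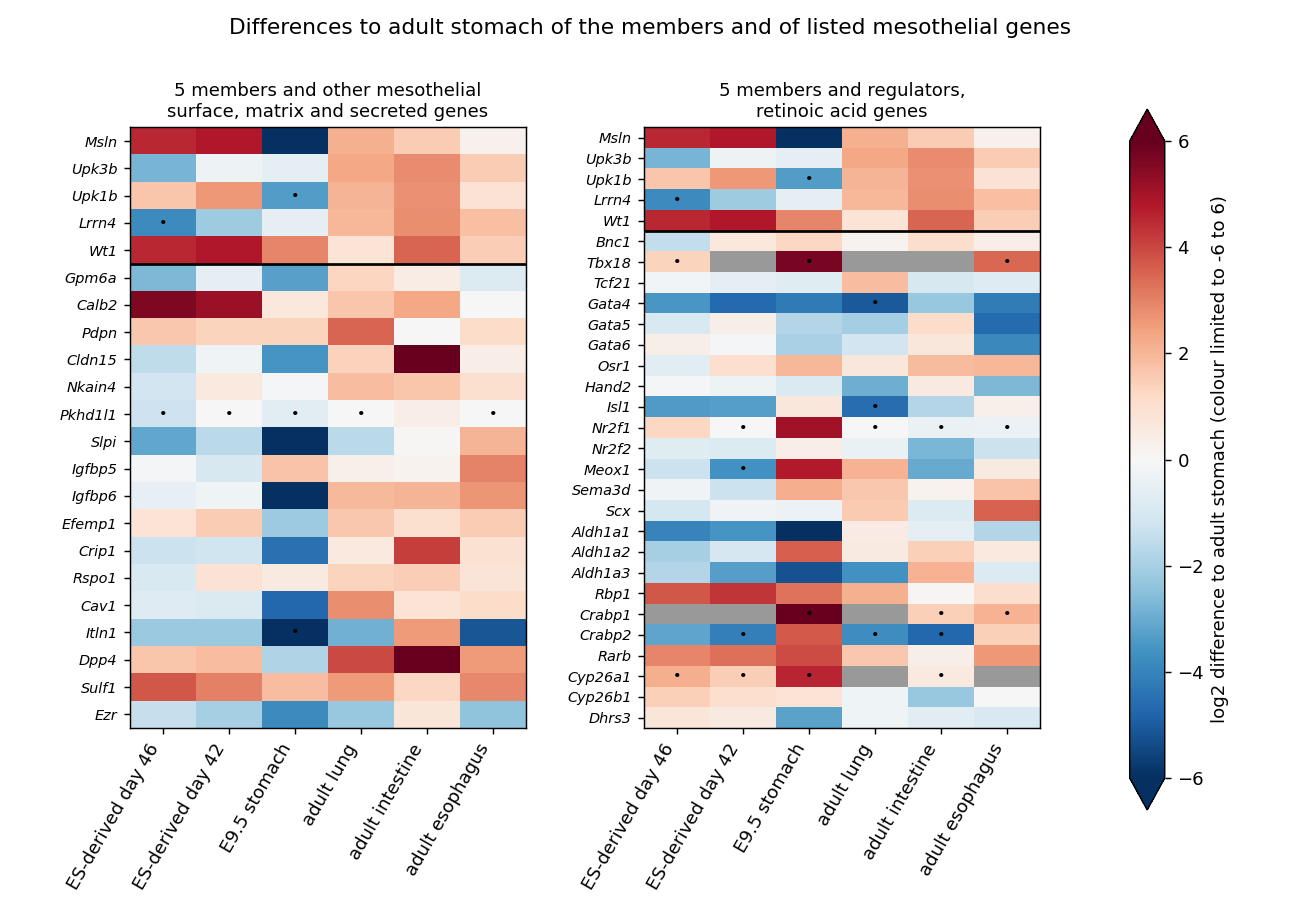
Log2 difference to adult stomach (colour, limited to -6 to 6) of the 5 genes, above the black line, and of 2 lists of mesothelial genes, below it, in the other 6 samples (columns). Dots mark differences with 1 value below background and grey cells have both values below background; the rows of Upk3b and Lrrn4 are blue to pale in the ES-derived columns and red in the adult columns.

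In the adult organs the wider mesothelial list was also set against stomach. Of 17 surface, matrix and secreted genes, 11 were at least 2-fold higher in lung and 3 lower (median 1.37), 9 higher and 0 lower in intestine (median 1.24), and 8 higher and 2 lower in esophagus (median 0.95), where all genes had medians of -0.14, -0.08 and -0.07. Several are also made by other cells of these organs. Dpp4, an ectopeptidase that is abundant on the intestinal brush border, had the largest difference in intestine (7.82) and in lung (3.95), and Cldn15, a tight-junction protein of intestinal epithelium, was 6.83 higher in intestine. Nkain4 had levels of 1.98 in lung, 1.78 in intestine and 1.07 in esophagus, against 0.11 in stomach. The regulators and retinoic acid genes had medians of 0.00 over 21 genes in lung, 0.05 over 23 in intestine and 0.29 over 23 in esophagus.

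Among themselves, the 5 genes fell into different profiles over the 7 arrays. Pearson's r was 0.97 for Upk3b with Lrrn4 and 0.94 for Msln with Upk1b, while Wt1 had -0.57 with Lrrn4, -0.43 with Upk3b and 0.30 with Msln. These values describe 7 points, 4 of which share a slide, and they include the measured signals of Upk1b at E9.5 and Lrrn4 at day 46, which were not above background. Without the E9.5 array, r for Msln with Upk1b was 0.63 and for Msln with Wt1 0.84, so both rest on that array. For Upk3b with Lrrn4, r was 0.92 without day 46 and 0.95 to 0.98 without any other array. Leaving out arrays was added after these values were seen. Of 9307 other named genes with signal on at least 4 arrays and a range of at least 2 log2 units, the 10 most like the mean standardised profile of the 5 genes had r between 0.930 and 0.988. They were Orm3, Tnfsf13, Ccl24, Adig, Oog1, Aldh3b1, Rb1, Tnfrsf14, Pou2af1 and Pld1, each highest in adult intestine and lowest in the E9.5 primordium. Orm3, Ccl24, Adig, Oog1 and Tnfrsf14 had E9.5 values below the weakest signal above background on that array (-6.43). Closest to single genes were Pfkfb2, Gdf15 and Mtmr6 for Msln (r 0.994 to 0.997), Nkain4, Cxcr5 and Trarg1 for Upk3b (0.947 to 0.964), Dhx58, Tnfaip8l2 and Znfx1 for Upk1b (0.985 to 0.998), Prodh, Tspan13 and Fam169b for Lrrn4 (0.977 to 0.983), and Tmsb15l, Cdkn2d and Thnsl1 for Wt1 (0.952 to 0.973). The genes named for Msln and for Upk1b were all lowest at E9.5, where Msln was near background and Upk1b not above it. Their r was not given without that array. Cxcr5, Trarg1 and Fam169b had day 46 values below the weakest signal above background on the day 46 array (-7.13). Nkain4, first for Upk3b at 0.964, was also on the list of mesothelial surface genes.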

How the data were processed

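Background-corrected spot intensity (processed signal) and spot flags were read from Agilent Feature Extraction output, made with version 10.7.3.1 (both ES-derived tissues) or 10.5.1.1 (the rest), per the file headers, while the submitters' processing notes name 10.5. The authors also deposited log2 values scaled to the 75th percentile (column medians -3.33, day 42; -2.92, day 46; -2.75, esophagus; -2.68, lung; -2.86, stomach; -2.98, intestine; -3.43, E9.5), which correlated with the values here at 0.9991 or above.

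Controls and outlier spots were left out, spots of a probe averaged on the log2 scale, and the array's 75th percentile subtracted. A probe was above background where at least 0.5 of its spots were flagged so. RefSeq names were found for 24375 of 41174 probes through accessions and for 57 through symbols, and 16742 had none. The probe with the highest mean stood for a gene. A value not above background was replaced by the higher of itself and that array's weakest signal above background, which makes a fold a bound ("at least"); genes below background on both arrays were left out.

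Calls are differences of at least 2-fold. Named besides the members are the 2 to 4 listed genes with the largest differences and the genes of most similar profile; other genes were named as markers. Counting was tested on simulated data with less noise than the SD between probes. This checks the counting and not how reliable the calls are. Alternatives tried were normexp background correction (limma 3.58.1, offset 50), the authors' table, quantile normalization, median centring, no background filter, the mean over probes and a 4-fold threshold. The number of arrays, 1 per group, limits precision. The members, gene lists and naming rule were chosen with earlier results of these data known. Muc16, Ildr2, Prg4, Upk3bl, Synpo and Serpina1a had no named probe. Analyses used Python 3.11.15 with pandas 2.3.3.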

Additional observations from a re-analysis of the deposited data

How the results depend on the processing

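No paired analysis was possible because each group had 1 array. The median difference of the 5 genes kept its sign in all 9 comparisons under every alternative. For E9.5 minus adult stomach it was only -0.01 under median centring, the value of Upk3b, against -0.58 in the main setting. Of 54 values, 51 stayed within the SD between probes. The other 3 were smaller with normexp, 1.32 for lung (2.04 in the report), 1.98 for intestine (2.80) and 0.80 for esophagus (1.49) against adult stomach; the cause was not tested. Of the single-gene differences 241 stayed within the SD and 29 moved. With normexp 22 moved and 23 stayed. The mean over probes could change no member's value, since each had 1 probe. With no background filter only the bounds could change, and the authors' table used the same scaling. Adult stomach was the lowest adult organ for all 5 genes under all 6 alternatives. The mean over probes and no background filter could not change this order, as all 5 genes were above background in these organs. Under median centring the median of all genes shifted to -0.39 for day 46 minus day 42, -0.38 for day 46 minus E9.5, 0.43 for day 42 and 0.54 for E9.5 minus adult stomach, and -0.32 for lung minus adult stomach; 3 of 5 members were then, and under quantile normalization, at least 2-fold lower at day 46 than at day 42. With normexp 2 of 5 were at least 2-fold higher than adult stomach at day 46 and in esophagus. The share of higher genes among those called was 17.6% for day 46 against day 42 under median centring and 41.2% under quantile normalization (58.2% in the main setting), 67.8% for day 42 (47.1%) and 63.5% for E9.5 (47.9%) against adult stomach, and 36.5% for day 46 against E9.5 (52.1%), all under median centring. For day 46 minus day 42, 1390 genes were higher and 1000 lower by 2-fold; the higher count was 596 under median centring, 721 under quantile normalization, 482 with normexp and 2462 with no filter, and the lower count 2785 under median centring and 1733 with no filter. Other counts that moved over 1.5 times were 4806 higher for day 42 minus adult stomach under median centring (2988) and, with normexp, 1933 higher for day 46 (3050), 1309 higher for esophagus (2084) and 1744 lower for intestine (2872) minus adult stomach. With a 4-fold threshold all 18 counts fell, to between 118 and 2738; of the members, 0 were then higher in esophagus than in stomach, 0 lower at day 42 than at E9.5 and 1 lower at day 46 than at day 42. Values near background (Msln and Upk1b at E9.5, Lrrn4 in the ES-derived tissues) are limited by signal.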

Other observations

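Of 10 simple epithelial keratins and junction genes, which mesothelium shares with glandular epithelia, 5 were at least 2-fold higher at day 46 and 5 at day 42 than in adult stomach, with 1 lower in each. The cadherin gene Cdh2 was the most changed, at -0.35 at day 46 and -0.88 at day 42, against -5.92 in adult stomach, and the keratin gene Krt7 had 3.88 at day 46 and 3.47 at day 42, against 0.26 in adult stomach. In adult esophagus 7 of 10 were at least 2-fold lower than in stomach, including Krt8 (-0.57 in esophagus and 8.10 in stomach).

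Calb2, the calcium-binding protein calretinin that is used as a mesothelial marker and is also made by neurons, differed from Upk3b and Lrrn4 in the cultures. Its level was -0.09 at day 46 and -0.53 at day 42, against -5.06 in the E9.5 primordium and -5.69 in adult stomach. Amhr2, a receptor of the list of other Wt1-expressing cells, had a level of 3.84 in adult esophagus and 0.73 in adult lung, against -3.32 in adult stomach. Crabp1, a retinoic acid binding protein, had a level of 4.21 in the E9.5 primordium and was not above background in either ES-derived tissue or in adult stomach.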
